A study of Homo sapiens with 18 samples.

Results

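The genes described here encode 10 receptor tyrosine kinases or ligands of them, known to carry survival signals past a blocked EGFR, and were followed in an RNA sequencing study of the human lung cancer line PC9. The members were AXL, GAS6, MET, FGFR1, FGFR2, FGFR3, FGF2, EPHA2, ROR1 and KIT. The rule that chose them names gene identity and not levels, but earlier results of these data were known when they were chosen. They are 10 of the 30727 rows of the gene table, and 8 of them had enough reads to be tested, among 17641 genes. FGFR2 and KIT were not tested.

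PC9 is an established line whose growth depends on EGFR, and all groups are that single line. The 18 libraries form 6 groups of 3, and all cells grew in medium with 10% serum. Parental cells were given the solvent DMSO (parental_DMSO). Other parental cells were given 1 µM of the EGFR inhibitor erlotinib for 24 hours (erlotinib_24h). Drug-tolerant persisters (DTP) are the cells that survived 8 days in 1 µM erlotinib. A further group had 50 µM of the DNA-crosslinking drug carboplatin for 72 hours (carboplatin_72h). Parental cells and DTP cells were also given trichostatin A (TSA), which blocks histone deacetylases, at 50 nM for 5 hours (parental_TSA and DTP_TSA). The DTP cells of DTP_TSA had the same earlier erlotinib exposure, without a change of medium. The labels do not say that replicates a, b and c were separate cultures, so p-values measure the spread between these samples, which may be technical.

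Receptor tyrosine kinases span the cell membrane, pair up when a ligand binds outside, and pass the signal on to the RAS-ERK and PI3K-AKT pathways inside. EGFR uses the same pathways, so another active receptor can keep them running while erlotinib holds EGFR down. In EGFR-mutant lung cancer, activation of AXL and amplification of MET are known routes of resistance, and FGF receptor loops, EPHA2 and ROR1 have been described as survival signals.

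Promoters are shown for 5 members, FGFR3 and GAS6, whose RNA was higher in both erlotinib groups, and MET, EPHA2 and ROR1, whose RNA was lower in both, so that the starts of genes called in the same direction against parental cells can be read side by side. Within both sets the genes took different courses from 24 hours to DTP. AXL was also lower in both erlotinib groups and is not printed: of its 2 RefSeq starts, 1 stretch held 2 GC boxes and the other 1 TEAD match. Each is the 250 bases before the RefSeq gene start on the gene's own strand, in build GRCh38.p14. The FGFR3 stretch is chr4:1793043-1793292 (plus strand) and that of GAS6 is chr13:113864077-113864326 (minus strand). That of MET is chr7:116671946-116672195 (plus), that of EPHA2 chr1:16156070-16156319 (minus) and that of ROR1 chr1:63773767-63774016 (plus). Capitals mark matches, on either strand, to any of 6 searched motifs.
FGFR3: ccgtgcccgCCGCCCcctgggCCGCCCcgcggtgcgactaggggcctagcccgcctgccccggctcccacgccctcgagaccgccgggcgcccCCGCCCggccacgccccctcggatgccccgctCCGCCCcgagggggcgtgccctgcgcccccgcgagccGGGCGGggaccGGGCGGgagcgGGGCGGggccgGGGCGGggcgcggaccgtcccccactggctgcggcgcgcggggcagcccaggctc
GAS6: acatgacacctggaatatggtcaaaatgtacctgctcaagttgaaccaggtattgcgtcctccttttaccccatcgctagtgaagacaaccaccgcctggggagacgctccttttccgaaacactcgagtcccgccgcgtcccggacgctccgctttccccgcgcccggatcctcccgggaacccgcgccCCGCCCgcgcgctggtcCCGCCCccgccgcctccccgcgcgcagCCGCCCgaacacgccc
MET: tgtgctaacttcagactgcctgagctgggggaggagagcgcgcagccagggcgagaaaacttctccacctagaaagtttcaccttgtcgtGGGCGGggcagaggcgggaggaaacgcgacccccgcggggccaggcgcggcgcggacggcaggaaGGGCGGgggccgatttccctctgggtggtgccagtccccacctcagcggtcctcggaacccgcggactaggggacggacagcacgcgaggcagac
EPHA2: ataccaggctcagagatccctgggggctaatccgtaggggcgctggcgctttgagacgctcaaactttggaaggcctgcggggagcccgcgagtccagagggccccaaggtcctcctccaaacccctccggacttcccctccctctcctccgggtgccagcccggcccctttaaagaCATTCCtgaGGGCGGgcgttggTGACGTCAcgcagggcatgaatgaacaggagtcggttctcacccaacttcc
ROR1: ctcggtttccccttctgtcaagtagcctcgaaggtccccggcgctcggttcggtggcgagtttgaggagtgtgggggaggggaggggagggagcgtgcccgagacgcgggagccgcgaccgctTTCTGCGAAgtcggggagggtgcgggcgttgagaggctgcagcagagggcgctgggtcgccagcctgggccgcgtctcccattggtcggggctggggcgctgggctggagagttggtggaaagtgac

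The motifs were the GC box GGGCGG, the AP-1 site TGANTCA, the cAMP response element TGACGTCA, the TEAD site GGAATG, the FOXO site GTAAACA and the STAT site TTCNNNGAA. Among 35116 promoter stretches of this length in the RefSeq table, these were found in 42.6%, 6.57%, 1.65%, 11.9%, 2.98% and 6.57%, in that order. FGFR3 held 8 GC boxes, GAS6 held 3 and MET held 2. EPHA2 held 1 GC box, 1 cAMP response element and 1 TEAD match. ROR1 held 1 STAT match and no GC box. FGFR3 had 86.8% G and C, against a median of 58.0% over all stretches. These matches are descriptions of the letters and show no binding.

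Levels are in CPM, the reads of a gene scaled to the gene reads of its library after multiplying these by the library's TMM factor, a correction for composition, and between genes they are compared only as CPM per kilobase of the longest coding transcript. In parental_DMSO cells AXL was the highest member, at 71.4 ± 2.77 CPM per kb (SD, n = 3). EPHA2 at 48.4 ± 2.39 and MET at 48.0 ± 1.33 CPM per kb did not differ beyond their spread. ROR1 followed at 13.2 ± 0.429, GAS6 at 8.09 ± 0.297, FGFR1 at 6.07 ± 0.131 and FGFR3 at 0.0896 ± 0.0180 CPM per kb. With the median length of each gene's coding transcripts instead, MET came first, at 208 CPM per kb against 106 for AXL and 48.4 for EPHA2. FGFR1, at 11.1 CPM per kb, then stood above GAS6 at 8.09. In DTP cells GAS6 was the second highest, at 45.0 ± 0.786 CPM per kb against 51.7 ± 0.464 for AXL; with the median length MET came first (94.6), AXL next (76.3) and GAS6 after them (45.0 CPM per kb). With the longest transcript, MET at 21.8 ± 0.476 and EPHA2 at 18.6 ± 0.602 came next, and ROR1 at 7.66 ± 0.0955 and FGFR1 at 7.55 ± 0.0880 CPM per kb overlapped. With the median length FGFR1 was at 13.8 and ROR1 at 8.34 CPM per kb, so the order of the members depends on the length chosen.

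A pair of libraries stood apart. DTP_TSA a had 99.9 spike-in reads per 100 gene reads, against at most 0.786 in the other libraries, and the fewest gene reads (32139343, in a range up to 128293531). EGFR, the drug's target, was at 1032, 1157 and 1149 CPM in parental_DMSO, at 455, 497 and 497 CPM in erlotinib_24h and at 587, 623 and 571 CPM in DTP. Carboplatin_72h EGFR levels were 331, 327 and 320 CPM. In parental_TSA the EGFR levels were 96.5, 281 and 478 CPM, which sets replicate a apart there. DTP_TSA levels of EGFR were 401, 376 and 391 CPM. Epithelial markers, 8 in the list with EGFR among them, summed to between 4316 and 8965 CPM in all libraries. The sums were 6123 to 6268 CPM in parental_DMSO, 8735 to 8965 in erlotinib_24h, 5802 to 5933 in DTP and 4316 to 4802 in carboplatin_72h. At 24 hours 6 were higher and 2 lower, beside 36.6% and 32.7% of all genes. In DTP these were 4 and 4, beside 31.0% and 27.8%, and in carboplatin_72h 1 and 5, beside 30.3% and 28.6%. Fibroblast markers, of 9 in the list, summed to 4.72 to 4.80 CPM in parental_DMSO and 24.4 to 28.5 CPM in DTP, nearly all of it COL1A1, a collagen gene. In erlotinib_24h the fibroblast sum was 19.3 to 20.6 CPM. Of the 4 fibroblast markers tested, 3 were higher and 0 lower in DTP, beside 31.0% and 27.8% of all genes. The same counts were found at 24 hours, beside 36.6% and 32.7%. Endothelial markers, 7 in the list, summed to at most 38.2 CPM in parental_DMSO and at least 124 CPM in erlotinib_24h. Of the 5 tested, 4 were higher and 1 lower at 24 hours, beside 36.6% and 32.7% of all genes. In DTP 3 were higher and 2 lower, beside 31.0% and 27.8%. In carboplatin_72h fibroblast markers summed to 18.6 to 26.5 CPM, and leukocyte markers, 8 in the list, to 68.7 to 72.1 CPM against 30.0 to 32.8 CPM in parental_DMSO. The leukocyte sum was nearly all CD68, a lysosomal protein gene, and PTPRC, the pan-leukocyte marker, had a mean of 0 CPM in parental_DMSO and 0.0323 CPM in carboplatin_72h. Of 6 tested leukocyte markers, 4 were higher and 0 lower in carboplatin_72h, beside 30.3% and 28.6% of all genes. Their median log2 change was 2.26, and with spike-in scaling 6 were higher. The part of these markers in the members' results was not tested, and fewer cells of a type and less RNA per cell cannot be told apart in bulk RNA.

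**Figure D1:**
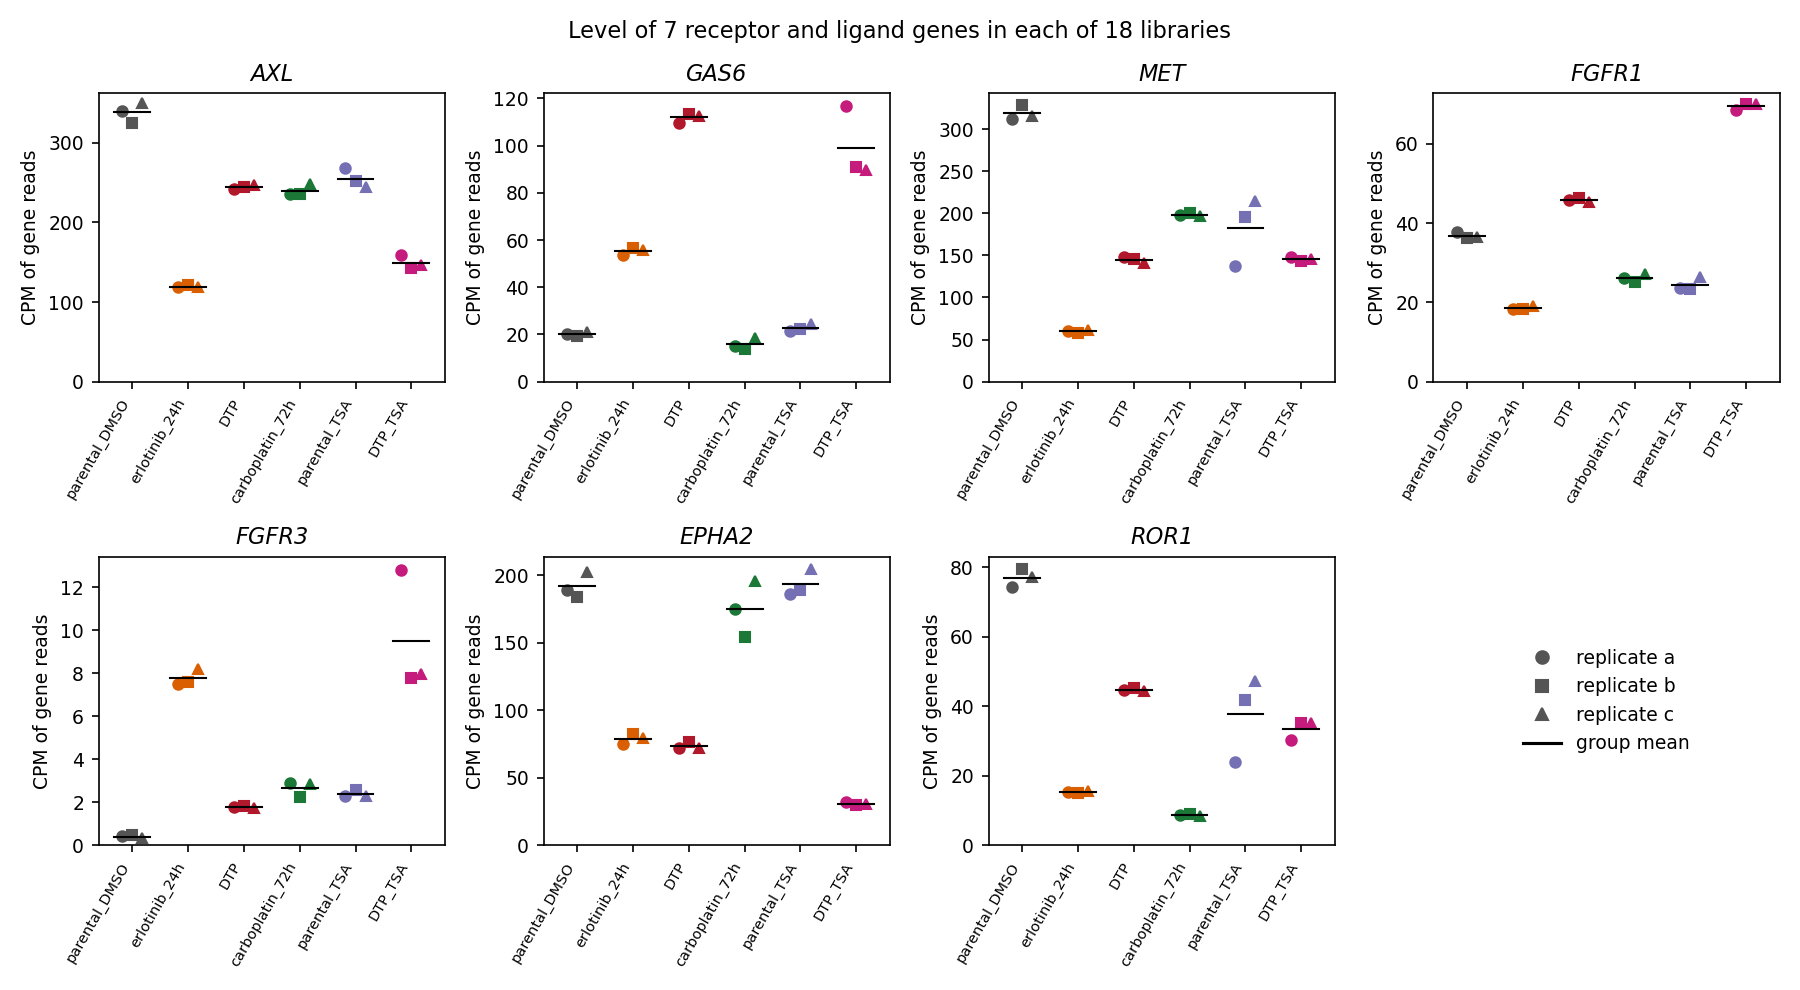
Level of each of 7 members (vertical axis, CPM of gene reads from 0, a separate scale per gene) in the 18 libraries by group (horizontal axis). Points are libraries, with the replicate letter as the symbol, and bars are group means; GAS6 in DTP lies between 110 and 113 CPM, above all parental_DMSO libraries at 19.5 to 21.0 CPM.

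GAS6, the secreted vitamin K-dependent ligand of AXL, had the highest fold change in persisters among the members. It lies at chr13:113820549-113864076 on the minus strand (GRCh38.p14). Its level was 20.0, 19.5 and 21.0 CPM in parental_DMSO, 53.5, 56.7 and 55.6 CPM in erlotinib_24h and 110, 113 and 113 CPM in DTP. The 3 groups did not overlap. GAS6 was 2.74-fold higher at 24 hours (log2 fold change 1.46 ± 0.11 SE, adjusted p = 2.1e-09, edgeR) and 5.56-fold higher in DTP (2.47 ± 0.11, adjusted p = 6.45e-12, edgeR) than in parental cells. DTP was in turn 2.03-fold above the 24-hour group (adjusted p = 3.06e-07, edgeR). In carboplatin_72h it was at 15.1, 13.6 and 18.6 CPM. The antisense gene GAS6-AS1, which overlaps its exons, reached at most 0.338 CPM, and the strand setting of the counting is not given in the sources used here.

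AXL, the TAM family receptor that binds GAS6, went the other way. It lies at chr19:41219223-41261766 (GRCh38.p14). Its level was 340, 324 and 350 CPM in parental_DMSO, 119, 121 and 118 CPM in erlotinib_24h and 243, 245 and 247 CPM in DTP. AXL fell 2.83-fold at 24 hours (log2 fold change -1.50 ± 0.05, adjusted p = 1.3e-13, edgeR) and was 2.05-fold higher in DTP than at 24 hours (1.04 ± 0.05, adjusted p = 4.02e-11, edgeR). DTP cells stayed below parental cells, by 0.47 ± 0.05 on the log2 scale (adjusted p = 7.16e-07, edgeR). Per length, GAS6 stood at 11.3 ± 0.136 for every 100 of AXL in parental_DMSO, at 88.1 ± 1.95 in erlotinib_24h and at 87.0 ± 1.06 in DTP (SD, n = 3). The ratio was 12.5 ± 1.63 in carboplatin_72h, 16.9 ± 1.94 in parental_TSA and 126 ± 12.2 in DTP_TSA. With the median transcript lengths these ratios were 7.67 in parental_DMSO, 59.6 in erlotinib_24h and 58.9 in DTP. The 24-hour and DTP ratios overlapped, although both genes were higher in DTP.

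**Figure D2:**
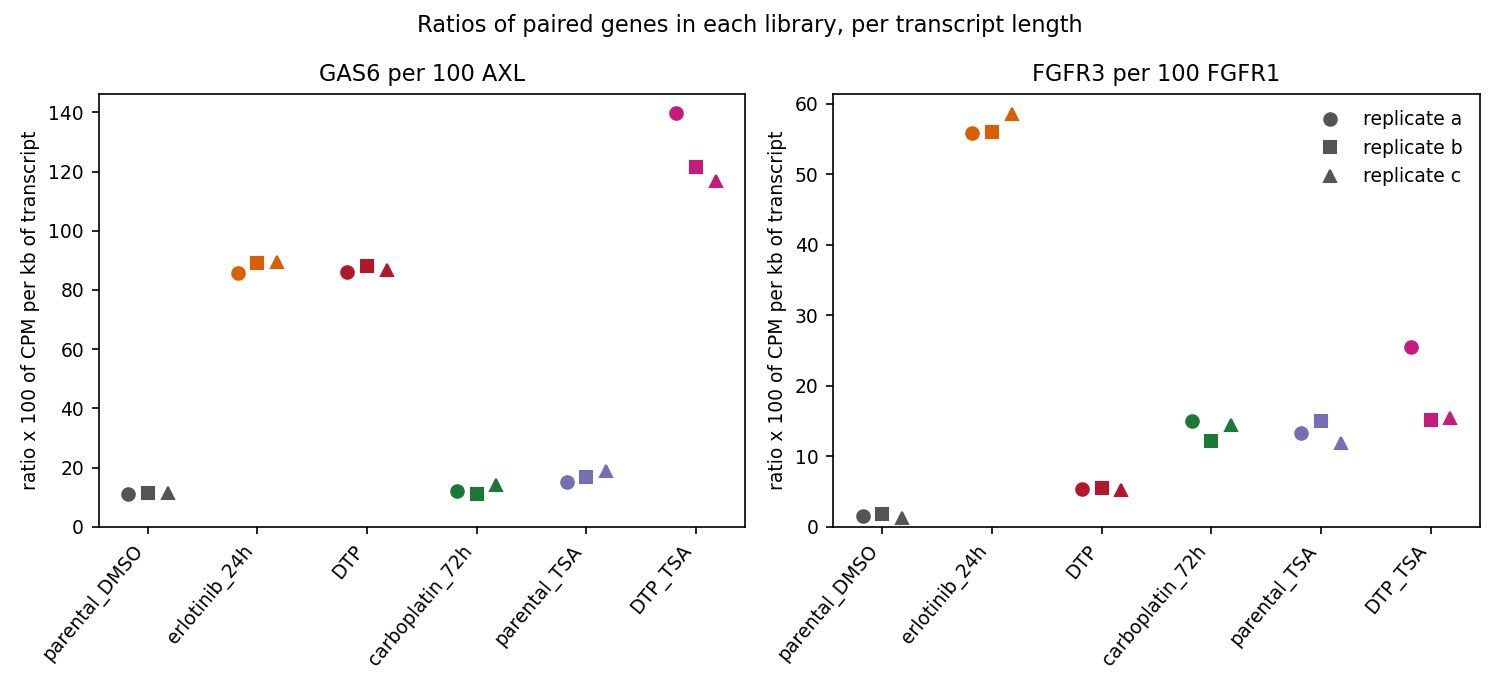
Ratio of GAS6 to AXL (left) and of FGFR3 to FGFR1 (right), each times 100 and per kilobase of transcript, in every library (points; horizontal axis, the 6 groups; vertical axes from 0). GAS6 per 100 AXL is near 11.3 in parental_DMSO and near 88 in both erlotinib groups, while FGFR3 per 100 FGFR1 is at 56.8 only after 24 hours of erlotinib and at 5.31 in DTP.

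MET, the receptor of hepatocyte growth factor, fell more deeply than AXL and came part of the way back. It lies at chr7:116672196-116798377 (GRCh38.p14). Its level was 312, 329 and 315 CPM in parental_DMSO, 59.9, 57.6 and 61.6 CPM in erlotinib_24h and 147, 145 and 141 CPM in DTP. MET was 5.34-fold lower at 24 hours (log2 fold change -2.42 ± 0.11, adjusted p = 3.63e-12, edgeR). In DTP it was 2.20-fold below parental cells (adjusted p = 8e-08, edgeR) and 2.42-fold above the 24-hour group (adjusted p = 2.31e-08, edgeR). The 3 groups did not overlap.

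EPHA2, a receptor of membrane-bound ephrin-A ligands, fell and stayed low. It lies at chr1:16124337-16156069 on the minus strand (GRCh38.p14). Its level was 189, 184 and 202 CPM in parental_DMSO, 74.8, 82.5 and 79.3 CPM in erlotinib_24h and 72.1, 76.4 and 72.4 CPM in DTP. EPHA2 was 2.43-fold lower at 24 hours (adjusted p = 8.16e-11, edgeR) and 2.60-fold lower in DTP (adjusted p = 7.06e-11, edgeR). Those 2 erlotinib groups overlapped, and their difference was -0.10 on the log2 scale with a 95% interval from -0.25 to 0.06 (adjusted p = 0.272, edgeR). With only the groups compared in the fit, the same difference was called, at -0.13 (adjusted p = 0.00228), as it was with a filter of 1 CPM in 3 libraries, at -0.16 (adjusted p = 0.049).

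ROR1, a receptor that binds WNT5A, followed the course of MET in the erlotinib groups. It lies at chr1:63774017-64181498 (GRCh38.p14). Its level was 74.3, 79.3 and 77.1 CPM in parental_DMSO, 15.2, 15.1 and 15.6 CPM in erlotinib_24h and 44.5, 45.3 and 44.2 CPM in DTP. ROR1 fell 5.02-fold at 24 hours (log2 fold change -2.33 ± 0.16, adjusted p = 1.16e-09, edgeR) and was 1.72-fold below parental cells in DTP (adjusted p = 0.000366, edgeR). The lowest libraries of all were those of carboplatin_72h, at 8.54, 9.07 and 8.35 CPM.

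FGFR1 and FGFR3, receptors of the fibroblast growth factors, moved in opposite directions within a day of erlotinib. FGFR1 lies on chromosome 8, from 38411143 to 38468635 (GRCh38.p14). Its level was 37.7, 36.3 and 36.4 CPM in parental_DMSO, 18.3, 18.4 and 19.1 CPM in erlotinib_24h and 45.7, 46.2 and 45.2 CPM in DTP. FGFR1 was 1.97-fold lower at 24 hours (adjusted p = 8.9e-11, edgeR) and 1.24-fold higher in DTP than in parental cells (adjusted p = 0.00013, edgeR). It was thus the only receptor of the 5 that fell at 24 hours to stand above the parental level in DTP, although scaling to the spike-ins left that rise at 0.41 on the log2 scale, with an adjusted p of 0.0545. LETM2, which overlaps FGFR1 exons on the other strand, was between 0.623 and 3.58 CPM.

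FGFR3 (chr4:1793293-1808867, GRCh38.p14) was nearly silent in parental cells, at 0.412, 0.470 and 0.312 CPM. It reached 7.51, 7.56 and 8.20 CPM in erlotinib_24h and was at 1.77, 1.84 and 1.72 CPM in DTP. None of these groups overlapped. FGFR3 was 19.5-fold higher at 24 hours (log2 fold change 4.28 ± 0.21, adjusted p = 1.04e-11, edgeR), 4.47-fold higher in DTP (adjusted p = 1.36e-07, edgeR) and 4.36-fold lower in DTP than at 24 hours (adjusted p = 3.23e-08, edgeR). Per length, FGFR3 stood at 1.48 ± 0.300 for every 100 of FGFR1 in parental_DMSO, at 56.8 ± 1.55 in erlotinib_24h and at 5.31 ± 0.115 in DTP (SD, n = 3). With the median transcript lengths the ratios were 0.850, 32.8 and 3.06, so their size depends on the length chosen. FGFR1 was the more abundant of the pair in all 6 groups with either length.

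The other 3 members were at the edge of detection. FGF2, the basic fibroblast growth factor, had between 0 and 17 reads per library: 0, 10 and 5 in parental_DMSO, 0, 8 and 11 in erlotinib_24h and 5, 1 and 1 in DTP. With all libraries and TMM scaling it was called in no comparison, and its interval for DTP against parental cells ran from -3.83 to 1.46 on the log2 scale. NUDT6, whose exons overlap FGF2 on the other strand, was at 3.98 to 16.6 CPM. FGFR2 had 0 reads in 17 libraries and 4 in DTP_TSA b. KIT, the receptor of stem cell factor, had 0 reads in 15 libraries, 2 and 3 in carboplatin_72h b and c and 1 in DTP_TSA c. A count of 0 in parental_DMSO a allows a level of up to 0.0409 CPM, for counting error only. The mast cell markers, 6 genes of a cell type that carries KIT, summed to at most 0.187 CPM in any library.

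In DTP against parental cells, 3 of the 8 tested members were higher and 4 lower, where 31.0% and 27.8% of all 17641 tested genes were higher and lower. The median log2 change of the members was -0.63, against 0.06 over all genes tested. At 24 hours 2 were higher and 5 lower, beside 36.6% higher and 32.7% lower over all genes, with medians of -1.13 and 0.11. From 24 hours to DTP, 5 were higher (AXL, GAS6, MET, FGFR1 and ROR1) and 1 lower (FGFR3), beside 30.5% and 24.8% of all genes. Its medians were 1.03 for the members and 0.03 for all genes. These comparisons share groups, so their counts do not stand as separate evidence. Scaling to the spike-ins moved the median of all genes to 0.16 in DTP, -0.23 at 24 hours and 0.48 between them, and the members called were then 2 higher and 4 lower, 2 and 5, and 5 and 1. The share of all called genes that were higher moved with it, from 52.7% to 63.6% in DTP, from 52.8% to 39.3% at 24 hours and from 55.1% to 80.7% between them.

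**Figure D3:**
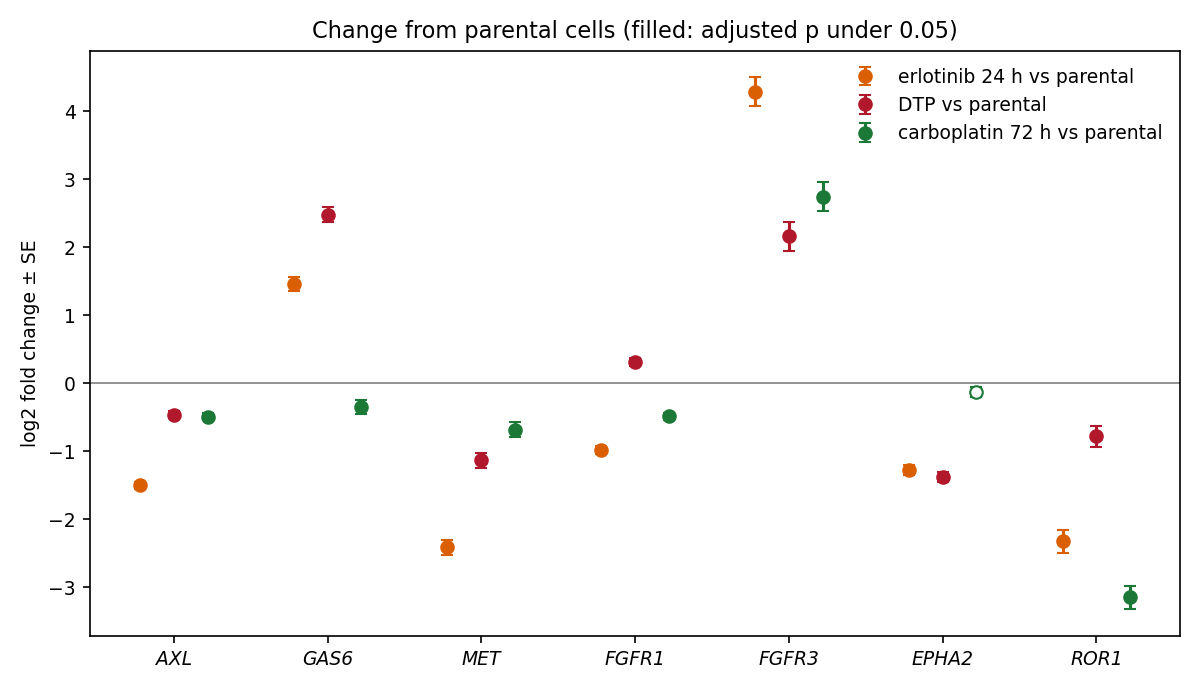
Log2 fold change from parental_DMSO (vertical axis, with SE bars) for 7 members (horizontal axis) in erlotinib_24h, DTP and carboplatin_72h; filled points have an adjusted p under 0.05. FGFR3 is above 0 in all 3, GAS6 in both erlotinib groups, and with spike-in scaling the carboplatin values of AXL, GAS6, FGFR1 and EPHA2 change sign.

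Carboplatin served as a drug treatment that does not act through EGFR. ROR1 was 8.89-fold lower (log2 fold change -3.15 ± 0.17, adjusted p = 1.08e-10, edgeR) and FGFR3, at 2.89, 2.23 and 2.86 CPM, was 6.68-fold higher (2.74 ± 0.21, adjusted p = 7.58e-09, edgeR). Both kept their call and direction with spike-in scaling. MET, at 198, 200 and 197 CPM, was lower by 0.68 (adjusted p = 2.93e-05, edgeR), and with spike-in scaling by 0.035 (adjusted p = 0.902). AXL (236, 236 and 249 CPM), FGFR1 (26.2, 25.1 and 27.1 CPM) and GAS6 were lower by 0.49, 0.49 and 0.35 on the log2 scale, but turned to 0.15, 0.15 and 0.28 higher, without a call, with spike-in scaling. EPHA2, at 175, 154 and 196 CPM, was not called (-0.13, 95% interval -0.29 to 0.02), and was called 0.50 higher with spike-in scaling. It was called lower without carboplatin_72h c (-0.22, adjusted p = 0.014) and without parental_TSA a (-0.16, adjusted p = 0.0428). Fibroblast and leukocyte marker sums were also higher in carboplatin_72h, and their part was not tested. In all, 1 member was higher and 5 lower, beside 30.3% and 28.6% of all genes; with spike-in scaling, 2 were higher and 1 lower, the median of all genes moved from 0.06 to 0.72, and the share of called genes that were higher from 51.4% to 89.7%.

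TSA for 5 hours was given to both cell states, so its effect can be compared between them. In parental cells AXL (269, 253 and 244 CPM), MET (137, 196 and 215 CPM), FGFR1 (23.7, 23.3 and 26.4 CPM) and ROR1 (24.0, 41.6 and 47.2 CPM) were lower than in parental_DMSO. FGFR3 was higher, at 2.31, 2.56 and 2.28 CPM, a 5.99-fold change (adjusted p = 1.8e-08, edgeR). That is 1 higher and 4 lower, beside 30.8% and 27.4% of all genes. Replicate a gave the lowest MET and ROR1, and without it MET fell by 0.64 in place of 0.80 and ROR1 by 0.80 in place of 1.03 on the log2 scale, both still called. GAS6, at 21.3, 22.4 and 24.3 CPM, and EPHA2, at 186, 189 and 205 CPM, were not called, with 95% intervals from -0.06 to 0.40 and from -0.14 to 0.17.

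In DTP cells, TSA was followed by a further fall of EPHA2 to 31.9, 30.1 and 30.6 CPM, 2.39-fold below DTP (adjusted p = 5.06e-10, edgeR) and below every other library of the study. AXL fell to 159, 142 and 146 CPM, 1.64-fold lower (adjusted p = 6.01e-09, edgeR). FGFR1 rose to 68.5, 70.0 and 70.1 CPM, its highest level in the study and 1.52-fold above DTP (adjusted p = 1.01e-07, edgeR). FGFR3 rose 5.31-fold (adjusted p = 9.78e-09, edgeR), to 12.8, 7.78 and 7.94 CPM, and by 2.13 in place of 2.41 on the log2 scale without DTP_TSA a. ROR1, at 30.1, 35.1 and 35.1 CPM, was lower by 0.42 (adjusted p = 0.0326, edgeR), a call that was lost without DTP_TSA a (0.36 lower, adjusted p = 0.0955) and without any single DTP library (adjusted p from 0.0586 to 0.0689). It was also lost with spike-in scaling (0.21 lower, adjusted p = 0.637) and with the filter of 1 CPM in 3 libraries (0.31 lower, adjusted p = 0.0788). MET, at 149, 144 and 145 CPM, was not called, with a 95% interval from -0.21 to 0.23. GAS6, at 117, 90.9 and 89.7 CPM, was not called either (-0.18, adjusted p = 0.162, edgeR), but without DTP_TSA a it was lower by 0.32 (adjusted p = 0.00822). FGF2 had 0, 15 and 17 reads, and was called higher by 2.51 (adjusted p = 0.0476) once DTP_TSA a was left out, by 2.51 (adjusted p = 0.03) with both TSA replicates a left out, and by 2.67 (adjusted p = 0.0497) with spike-in scaling. In the fit of all libraries 2 members were higher and 3 lower, beside 25.6% and 30.7% of all genes. With spike-in scaling 3 were higher and 2 lower, the median of all genes moved from -0.08 to 0.11, and the share of called genes that were higher from 45.5% to 63.3%.

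The difference between both TSA effects was tested directly, as the effect in DTP cells minus that in parental cells. FGFR1 differed by 1.19 ± 0.08 on the log2 scale (adjusted p = 1.26e-08, edgeR), since it fell in parental cells and rose in DTP cells. EPHA2 differed by -1.27 ± 0.10 (adjusted p = 1.29e-07, edgeR), with an effect of 0.01 in parental cells and -1.26 in DTP cells. MET differed by 0.81 ± 0.15 (adjusted p = 0.000436, edgeR), AXL by -0.31 ± 0.07 (adjusted p = 0.0036, edgeR) and ROR1 by 0.61 ± 0.22 (adjusted p = 0.0378, edgeR). FGFR3 rose in both states, and its difference of -0.18 had a 95% interval from -0.75 to 0.40. Thus 3 members were higher and 2 lower, beside 15.3% and 23.0% of all genes. With spike-in scaling only EPHA2 and FGFR1 remained called. For ROR1 the difference was 0.37 without parental_TSA a (adjusted p = 0.00414), and its call was lost when any 1 parental_DMSO or DTP library, DTP_TSA b, DTP_TSA c, erlotinib_24h a or carboplatin_72h a was left out (adjusted p from 0.05 to 0.0797). For GAS6 the difference of -0.35 (adjusted p = 0.0769, edgeR) was called without DTP_TSA a, at -0.49 (adjusted p = 0.00581), without parental_TSA a, at -0.39 (adjusted p = 0.0449), and without carboplatin_72h c, at -0.35 (adjusted p = 0.0384).

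**Figure D4:**
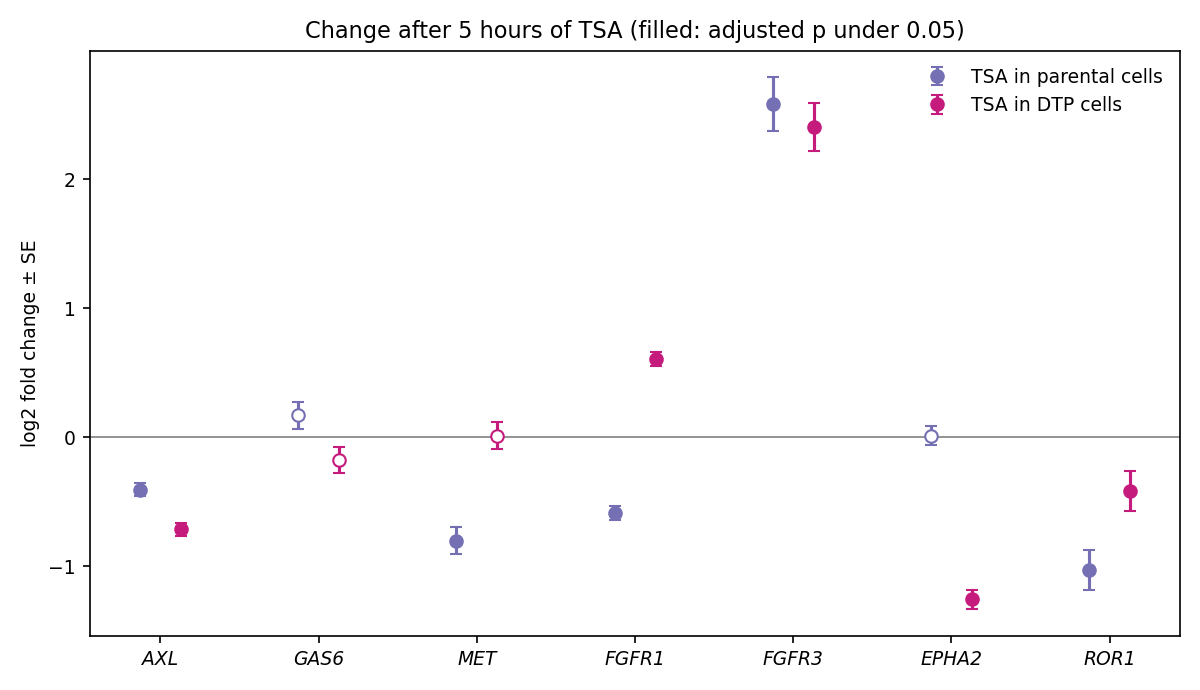
Log2 fold change after 5 hours of TSA (vertical axis, with SE bars) for 7 members (horizontal axis) in parental cells and in DTP cells; filled points have an adjusted p under 0.05. FGFR1 lies at -0.59 in parental cells and 0.61 in DTP cells, and EPHA2 at 0.01 and -1.26.

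The relatives and partners of the members were read from lists of the same pathways. Their counts with TMM scaling stand beside 31.0% higher and 27.8% lower over all genes in DTP, and 36.6% and 32.7% at 24 hours. Their counts with spike-in scaling stand beside 5631 genes higher and 3224 lower of 18094 tested in DTP, and 4665 and 7207 at 24 hours. Of 3 TAM genes, PROS1, a ligand in the TAM family that is not shown here to act on AXL, was higher in DTP by 3.78 ± 0.32 on the log2 scale (adjusted p = 2.45e-08, edgeR), from 0.184 to 2.56 CPM. In erlotinib_24h PROS1 was at 3.06 CPM. MERTK was lower in DTP by 0.41 (adjusted p = 0.0178, edgeR) and TYRO3, at -0.28, was not called. TYRO3 fell with erlotinib at 24 hours like AXL, from 35.7 to 10.3 CPM, and was at 29.3 CPM in DTP. MERTK rose with carboplatin (2.23 ± 0.14, adjusted p = 6.02e-10, edgeR) and with TSA in both states (1.70 and 2.59), each to between 17.5 and 25.4 CPM. With spike-in scaling the MERTK fall in DTP was not called (adjusted p = 0.305). All other calls named here and below for relatives and partners kept their direction and their call with that scaling.

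Of 10 tested MET axis genes, 4 were higher and 2 lower in DTP, and 6 and 3 at 24 hours; with spike-in scaling these were 5 and 2, and 5 and 3. CD44, a surface glycoprotein that can act as a co-receptor of MET, fell from 2087 to 493 CPM at 24 hours and was at 1242 CPM in DTP. SPINT1, an inhibitor of the protease that activates hepatocyte growth factor, rose from 86.8 to 358 CPM at 24 hours (2.04 ± 0.06, adjusted p = 3.15e-14, edgeR) and was at 149 CPM in DTP. GAB1, the docking protein of MET, was higher at 24 hours (1.46) and in DTP (1.35). HGF, the MET ligand itself, was at most 0.0294 CPM in any library.

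Of 21 tested FGF receptor and ligand genes, 10 were higher and 3 lower in DTP, and 6 and 5 at 24 hours. With spike-in scaling they were 11 and 3 in DTP and turned to 5 higher and 7 lower at 24 hours. All genes turned the same way at 24 hours with that scaling, to 4665 higher and 7207 lower of 18094 tested. KL, an FGF co-receptor, rose at 24 hours from 0.837 to 8.22 CPM (3.29 ± 0.23, adjusted p = 1.1e-09, edgeR), and FGFBP1, which releases FGFs from the matrix, from 4.22 to 37.2 CPM. In DTP these were at 3.40 and 4.76 CPM, below the 24-hour group as FGFR3 was. FGFR4 rose with TSA in parental cells (1.65) and in DTP cells (1.66). FGFRL1, a receptor without a kinase, fell from 40.7 to 9.69 CPM at 24 hours.

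Of 17 tested Eph and ephrin genes, 8 were higher and 4 lower in DTP, and 8 and 3 at 24 hours. With spike-in scaling, of 19 tested, 8 were higher and 2 lower in DTP, and 6 higher and 5 lower at 24 hours. EFNA1, a ligand of EPHA2, rose from 6.53 to 87.1 CPM at 24 hours (3.74 ± 0.09, adjusted p = 9.05e-16, edgeR) and was at 19.0 CPM in DTP. EFNB2, a ligand of the EphB receptors, fell from 301 to 38.2 CPM at 24 hours and was at 117 CPM in DTP. TSA raised EPHB3 in parental cells (3.90 ± 0.11, adjusted p = 1.1e-13, edgeR) and in DTP cells (4.43 ± 0.11, adjusted p = 3.21e-14, edgeR), while EPHA2 was not called higher in either.

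Of 8 tested ROR and Wnt receptor genes, 5 were higher and 2 lower in DTP, and 5 and 2 at 24 hours. With spike-in scaling the counts were 5 and 0 in DTP and 3 and 2 at 24 hours. WNT5A, a ligand of ROR1, was higher in DTP, at 27.3 against 8.63 CPM (1.66 ± 0.16, adjusted p = 1.44e-07, edgeR), and fell after TSA in DTP cells (-1.75). In erlotinib_24h WNT5A was at 16.2 CPM. Of 9 tested KIT family genes, 7 were higher and 1 lower in DTP, or 7 and 0 with spike-in scaling. At 24 hours the KIT family counts were also 7 and 1, or 6 and 1 with spike-in scaling. KITLG, the ligand of KIT, was at 17.8 CPM in parental_DMSO and 53.1 CPM in DTP (1.57 ± 0.15, adjusted p = 1.36e-07, edgeR), while KIT itself had 0 reads in both. PDGFB, a ligand of the PDGF receptors, rose from 63.7 to 242 CPM in DTP. In erlotinib_24h KITLG was at 27.5 CPM and PDGFB at 139 CPM.

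Of 19 tested shared adaptors and effectors, 10 were higher and 6 lower in DTP, and of 8 genes of receptor shedding 5 and 2, beside 31.0% and 27.8% of all genes. With spike-in scaling the adaptors were 7 higher and 1 lower, and the shedding genes 2 and 2, beside 5631 and 3224 of all 18094 genes tested. At 24 hours the adaptors were 9 higher and 7 lower and the shedding genes 5 and 2, beside 36.6% and 32.7%. With spike-in scaling these were 4 and 8, and 3 and 2, beside 4665 and 7207. CBLB, a ubiquitin ligase that marks active receptors for removal, rose from 14.1 to 87.8 CPM in DTP (2.64 ± 0.08, adjusted p = 2.53e-14, edgeR). PTPN11, the phosphatase SHP2 that links receptors to RAS, fell from 410 to 216 CPM in DTP. TIMP2, an inhibitor of metalloproteinases, rose from 76.3 to 327 CPM in DTP. In erlotinib_24h these genes were further from parental_DMSO, at 99.7 CPM for CBLB, 171 CPM for PTPN11 and 501 CPM for TIMP2. Of 34 tested other receptor tyrosine kinases, some of them in the lists above, 17 were higher and 6 lower in DTP, with a median of 0.65, against 3 and 4 and -0.63 for the members. With spike-in scaling these were 17 higher and 0 lower of 38 tested. At 24 hours these kinases were 15 higher and 7 lower, with a median of 0.50, against 2 and 5 and -1.13 for the members. With spike-in scaling the kinases were then 14 higher and 10 lower. ERBB3, the kinase-poor partner of EGFR, rose from 28.7 to 169 CPM at 24 hours (2.56 ± 0.10, adjusted p = 3.16e-13, edgeR) and was at 57.6 CPM in DTP. INSR, the insulin receptor, was higher in DTP by 1.54 ± 0.09 (adjusted p = 3.49e-10, edgeR).

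Over the 18 libraries, the genes with the most similar profile, by Pearson's r of log2(CPM + 1) among 11010 genes, were HNRNPAB for AXL (0.988), MRTFA for GAS6 (0.986), NUP188 for MET (0.993), OSTM1 for FGFR1 (0.963), NAT1 for FGFR3 (0.968), MAPK13 for EPHA2 (0.979) and DROSHA for ROR1 (0.976). For FGF2, with few reads, the closest gene reached 0.748. Among the members, AXL and MET had an r of 0.88, and AXL and FGFR3 one of -0.93. These values describe 18 libraries that share 6 group means and their depths.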

How the data were processed

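RNA from 18 PC9 libraries was polyA-selected, with ERCC spike-in RNA added by cell number, per the labels' protocols. Salmon is named in the submitters' processing notes with no version, and the deposited tables hold expected counts per gene, not scaled by the authors as far as the values show. For genome build, annotation and strand, settings were not given in the sources used here. Of the columns per table, 3 matched none of the samples and stayed out. Symbols were found for 27814 of 30727 identifiers in the RefSeq table, and rows without one held 0.247% of reads.

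Expected counts were rounded, filtered by edgeR's expression filter (17641 genes) and scaled by TMM. In R 4.3.3, edgeR 4.0.16 with limma 3.58.1 gave quasi-likelihood F-tests from 1 fit of all libraries, each group having its own term (residual degrees of freedom 12), with 7 contrasts and Benjamini-Hochberg adjustment over all genes at 0.05, and was tested on simulated data. Spike-in scaling took library sizes from the ERCC reads and left out DTP_TSA a. Other alternatives were DESeq2 1.42.0, its size factors in edgeR, no filter, 1 CPM in 3 libraries, a replicate block, only the groups compared, and libraries left out. Transcript lengths came from GENCODE 29. Figures used matplotlib 3.10.9 in Python 3.11.15.

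The members and lists were chosen with earlier results of these data known. All members and EGFR are named. From each of 9 receptor lists, up to 2 genes per direction and comparison could be named, those with the largest change among genes called, at 5 CPM or more in the higher group and without group overlap. PROS1, HGF, MERTK and TYRO3 where not called, and levels in further groups, were added after their values were seen. The closest 3 profiles per member were computed and the first is given.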

Additional observations from a re-analysis of the deposited data

Results flagged for a closer look

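The effect of TSA differed between DTP and parental cells by the test of the difference itself (edgeR, adjusted p under 0.05) for 5 members. On the log2 scale, as DTP minus parental, the difference was -1.27 for EPHA2, 1.19 for FGFR1, 0.81 for MET, 0.61 for ROR1 and -0.31 for AXL. The signs of the effects were opposite in both states for FGFR1, and all 3 libraries of each TSA group lay on the same side of their untreated libraries. The differences for MET and ROR1 involve parental_TSA a, which had the lowest level of both genes in its group. Without that library the differences were 0.64 and 0.37, both still called.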

How the results depend on the processing

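Of 56 member comparisons, 41 kept their side of the threshold under every alternative run. Where any of these 41 was called, its direction was kept as well. With spike-in scaling, the members called fell from 6 to 3 in carboplatin_72h and from 5 to 2 in the difference between TSA effects. In carboplatin_72h the sign then turned to 0.15 for AXL (adjusted p = 0.362), 0.28 for GAS6 (adjusted p = 0.166), 0.15 for FGFR1 (adjusted p = 0.434) and 0.50 for EPHA2 (adjusted p = 0.0135). The count of all genes called for the difference between TSA effects fell from 6750 to 2717; the cause was not tested. Letters a, b and c gave no sign of pairing, since 12 of 45 same-letter pairs and 24 of 90 other pairs had residual correlations over 0.1. With the letter as a replicate block, 7 members were still called in DTP against parental cells (GAS6 2.48, EPHA2 -1.38), and no member's call changed in any comparison. Leaving out single libraries moved 21 of 1008 values of member comparisons across the threshold, 14 of them to a lost call. No value that was called with or without the library changed sign. Uncalled values could: MET in DTP_TSA against DTP went from 0.01 to -0.01 without DTP_TSA a. All 14 lost calls were of ROR1, whose difference between TSA effects ranged from 0.37 to 0.80. EPHA2 in carboplatin_72h was called without carboplatin_72h c (-0.22, adjusted p = 0.014) and without parental_TSA a (-0.16, adjusted p = 0.0428). With both TSA replicates a left out, GAS6 was called in parental_TSA (0.21, adjusted p = 0.0259) and in DTP_TSA (-0.32, adjusted p = 0.00118). FGF2, FGFR2 and KIT had too few reads for any but very large changes to be seen.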
